A study of Schizosaccharomyces pombe with 9 samples.

Results

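The genes described here lie at the ends of chromosomes 1 and 2 of fission yeast, Schizosaccharomyces pombe. They were taken by the start of their systematic ID (SPAC212, SPAC977, SPAC750, SPAC186, SPAC869, SPBCPT2R1, SPBC1348, SPBPB10D8, SPBPB2B2 or SPBPB21E7), without the nucleotidase-like gene SPBPB2B2.06c, which gave 114 genes of the 6986 features counted. RefSeq's annotation of the ASM294v3 genome holds all 114 and places 30 on the left and 28 on the right arm of chromosome 1, and 31 on the left and 25 on the right arm of chromosome 2. By product, 37 encode enzymes or enzyme-like proteins, 23 belong to gene families repeated at several chromosome ends, 18 encode transporters, 17 are pseudogenes or truncated genes, 3 encode surface glycoproteins, 2 encode RecQ-type helicases (tlh1 and tlh2), 1 encodes a predicted transcription factor and 13 are uncharacterised.

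Subtelomeres are the stretches next to the telomere repeats. In fission yeast their outer part is packed into heterochromatin, in which the methyltransferase Clr4 marks histone H3 at lysine 9 and the protein Swi6 binds the mark, and genes there are kept nearly silent in growing cells. The same blocks of sequence are copied between chromosome ends, so several of these genes have close copies, and many of the single-copy genes farther in take part in transport or in the use of uncommon nutrients.

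RNA was measured in suppressor mutants STF6 and STF9 and in the strain rpb1-CTD-T4A29 (T4A below), which the study's design names as their parental control. T4A carries a change of threonine 4 in the repeated tail, the carboxy-terminal domain, of the RNA polymerase II subunit Rpb1. Which genes the suppressors carry mutated, and any allele beyond the strain names, is not given in the sources used here. All cultures were grown to log phase in the rich medium YES at 30 °C and are labelled as vegetative growth, and poly(A)+ RNA was sequenced from 3 libraries per group. The labels call these replicate experiments and do not say whether they came from separate cultures, so the p-values below measure the spread between these libraries, which may be technical.

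Total counts per library ranged from 15374453 to 22909747. Of 5951 genes with enough counts to test, 39 were subtelomeric. In a principal component analysis the mutant libraries lay apart from those of T4A, most of all from T4A replicate 2. Over the 39 tested subtelomeric genes the median coefficient of variation was 12.9% in STF6, 11.1% in STF9 and 22.0% in T4A, and T4A replicate 2 held the highest T4A level for 19 of them and the lowest for 17. Markers of starved, mating or meiotic cells were also measured, since a vegetative culture can hold some. Of the 11 tested of 14 listed, 2 were higher and 3 lower in STF6 than in T4A, and 1 was higher and 3 lower in STF9, by the test described below, where 19.2% of all genes were higher and 19.2% lower in STF6 and 23% and 21.3% in STF9. Among the higher ones was isp4, an oligopeptide transporter gene, at 2.22 and 2.13 on the log2 scale. The 3 lower markers in each mutant went the other way, so isp4 does not stand for the list. The summed level of the 14 markers was 363 to 376 CPM, the counts scaled to a common library size, in STF6, 331 to 355 CPM in STF9 and 294 to 420 CPM in T4A. None of the 14 was at 0. The part of such cells in the results below was not tested, and in RNA from whole cultures fewer cells that use a gene and less RNA per cell cannot be told apart.

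Most subtelomeric genes had few or no counted reads in every strain. No read was counted in any of the 9 libraries for 20 of the 114 genes, 55 others had at least 1 count but too few to test, and the highest total among these 75 was 74 counts over all libraries, for SPBPB2B2.08, a conserved fungal protein gene of unknown role. Summed over the 75 genes, the level was 5.17 to 6.44 CPM in STF6, 3.75 to 6.49 CPM in STF9 and 5.44 to 6.18 CPM in T4A. The ranges of the 3 groups overlapped. A gene with few reads in T4A and more in the mutants could have enough counts to test, and is then not in this sum. The overlap therefore cannot show whether the genes least expressed in T4A rose in the mutants. The 39 tested genes are those that were counted more often, and they are not a sample of all 114.

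A low count can also come from repeated sequence. In the ASM294v3 genome, 61 of the 114 genes had over 50% of their 100-base windows repeated elsewhere, 37 had over 90%, and 49 had none. Of the 49 genes with no repeated window, 27 were tested and 3 had no count, with a median total of 240 counts. Of the 27 genes whose every window is repeated, 1 was tested and 16 had no count, with a median total of 0. The plot of counts against the repeated share shows this. The sources used here do not say how reads that match several places were counted, so a 0 in a repeated gene cannot be read as no RNA.

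**Figure D1:**
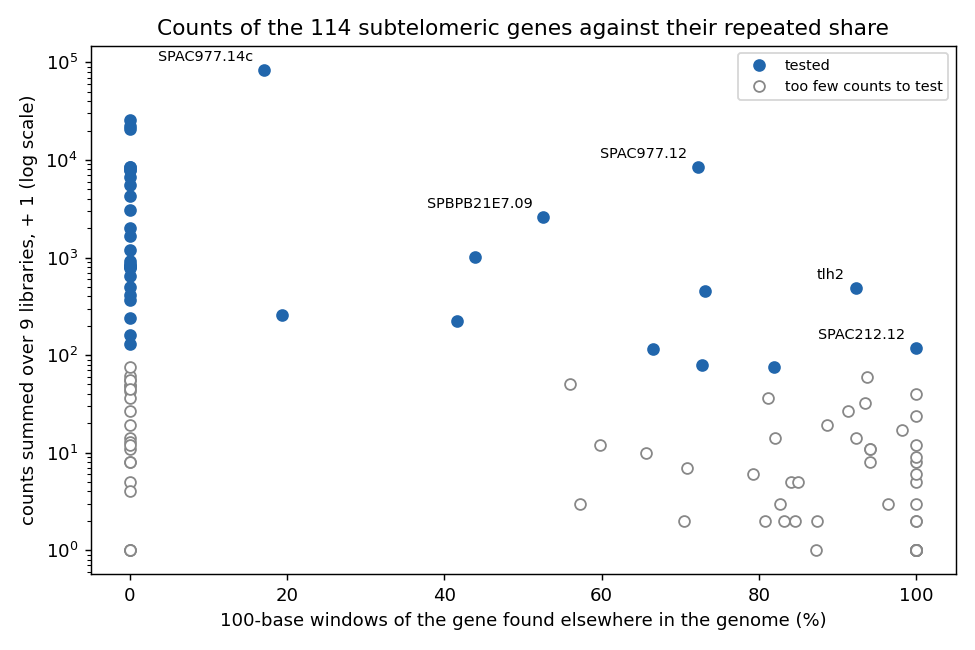
Counts summed over the 9 libraries plus 1 (log scale) against the share of each gene's 100-base windows found elsewhere in the genome, 1 point per subtelomeric gene. Filled points are the 39 tested genes, of which 27 have no repeated window, and most genes at the right edge lie at or near 0 counts.

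By predicted protein, 45 of the 114 genes fell into 17 groups of near-identical copies, at least 95% identical over at least 90% of the longer protein. The ftm genes, a family of small membrane proteins with 5 predicted transmembrane segments, had 8 members and none was tested. Their summed counts were 13, 8 and 6 in the STF6 libraries, 9, 4 and 9 in the STF9 libraries and 3, 7 and 6 in the T4A libraries. The DUF999 family, named after a domain of unknown function, had 10 members and 2 tested, SPAC212.04c and SPBCPT2R1.04c. Its summed counts were 140, 180 and 111 in STF6, 146, 108 and 116 in STF9 and 141, 76 and 156 in T4A. In both families the mutants' counts overlapped those of T4A. The velum formation protein family, with 3 members, had 1 count in all 9 libraries together.

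The first comparison asked which of these genes differ between STF6 and its parent. By edgeR's quasi-likelihood test, 10 of the 39 were higher in STF6 (25.6%) and 10 were lower (25.6%), where over all genes tested 19.2% were higher and 19.2% lower. A gene is called higher or lower where its p-value, adjusted by Benjamini-Hochberg over all 5951 genes, is under 0.05. The median log2 fold over the 39 was 0.205 in STF6 over T4A, against 0.0293 over all genes. Without T4A replicate 2, 13 were higher and 12 lower, where 1399 of all 5992 genes were higher and 1233 lower. With all libraries 1141 and 1145 of all 5951 genes were. In STF9 compared with T4A, 7 of 39 were higher (17.9%) and 12 lower (30.8%), where 23% and 21.3% of all genes were. The median was 0.16 in STF9 over T4A, against 0.0427 over all genes. Without T4A replicate 2 the count was 12 higher and 10 lower, where 1555 and 1237 of all 5992 genes were. With all libraries 1368 and 1265 of all 5951 genes were. The libraries did not overlap for 9 higher and 10 lower genes in STF6 (25.7% and 24.5% of all genes) and for 8 higher and 11 lower genes in STF9 (28.7% and 25.3% of all genes). These shares were near those of all genes, and the subtelomeric genes did not rise together in either mutant. The higher genes of both mutants include SPAC212.07c, SPAC212.08c and SPAC212.12. These had enough counts to test only through the mutant libraries, where they are high. The shares of higher genes and the medians therefore depend in part on that selection. Both comparisons use the same 3 T4A libraries, so they are not independent of each other.

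Several of the genes that changed stood next to each other, as the plot by gene order shows. On the left arm of chromosome 1 the higher genes SPAC212.08c, SPAC212.07c and SPAC212.12 stood at places 4 to 6 from the end among the genes studied, and the first lower gene, nhe1, lay much farther in. On the left arm of chromosome 2 the lower gene SPBPB21E7.04c stood nearer to the chromosome end than the higher run aes1, SPBPB21E7.08 and SPBPB21E7.09. Between SPAC212.12 and nhe1 most genes had too few counts to test. SPAC212.08c, SPAC212.07c and SPAC212.12 had enough only through the mutant libraries, where they are high, so the selection favours higher genes there. How often called genes are neighbours over all genes was not counted, so these runs describe place only.

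**Figure D2:**
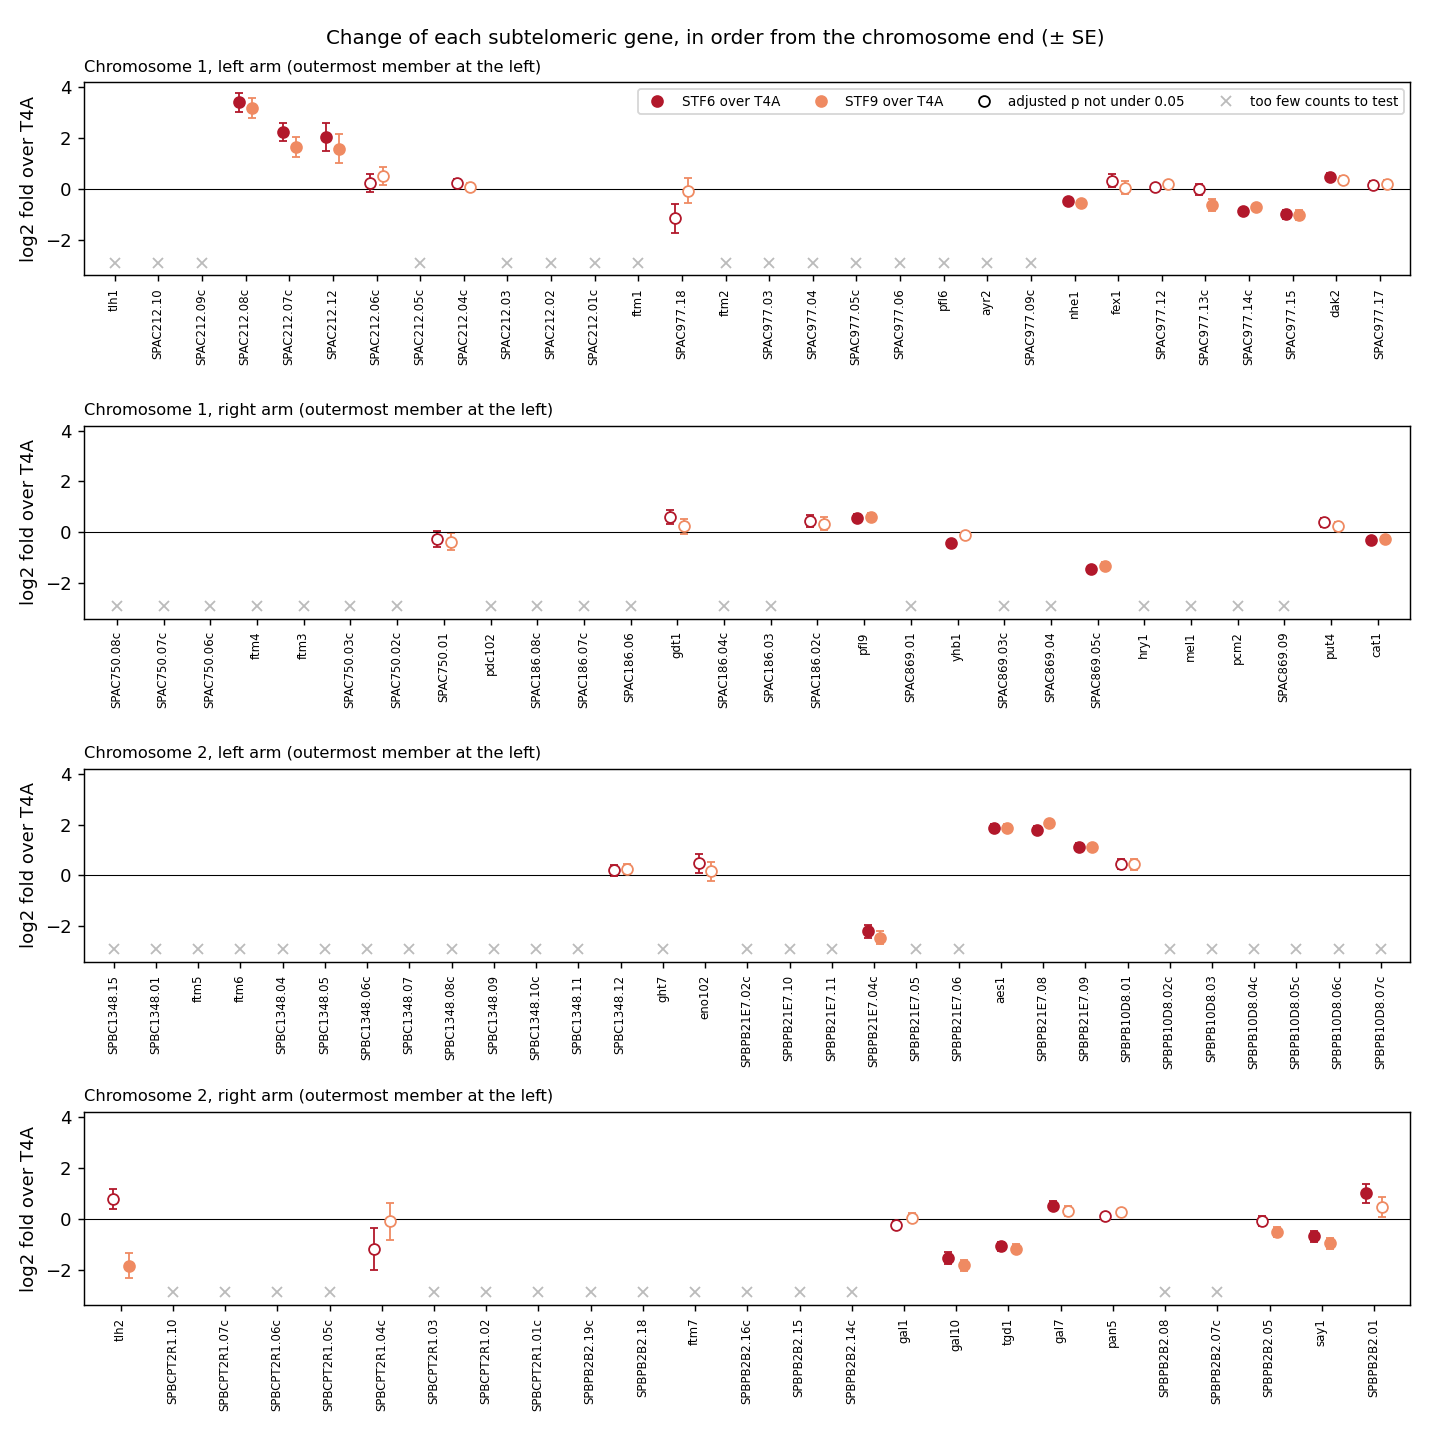
Log2 fold over T4A with its SE for each gene, in STF6 (dark) and STF9 (light), by order from the chromosome end on the 4 arms. Filled points passed the test, open points did not, and grey crosses at the foot mark the 75 genes with too few counts. The 2 runs of 3 higher genes lie on the left arms, and the run on chromosome 1 had enough counts to test only through the mutant libraries.

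Among the 39 tested genes, the 3 largest increases in STF6 were in genes of the outer left arm of chromosome 1, which had at most 10 reads in any T4A library. These 3 genes passed the filter on low counts only through the mutant libraries, where they are high, and could not be tested when 1 CPM was required in all 9 libraries. Their folds rest on few T4A reads, and their being among the genes tested depends on the difference itself. SPAC212.08c and SPAC212.12 encode members of a family of glycosylphosphatidylinositol (GPI) anchored proteins that is specific to S. pombe, proteins tied to the cell surface by a lipid anchor, and SPAC212.07c between them is a pseudogene. SPAC212.08c had 2.37, 1.61 and 1.93 CPM in the STF6 libraries and 1.91, 1.23 and 1.85 CPM in the STF9 libraries, against 0.294, 0.115 and 0.126 CPM in the T4A libraries. Every mutant library was above every T4A library, in which the gene had 6, 2 and 3 reads. Its log2 fold was 3.42 ± 0.38 (SE) in STF6 over T4A, 10.7-fold, and 3.18 ± 0.39 in STF9 over T4A, 9.07-fold, with adjusted p of 2.76e-05 and 7.39e-05.

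The neighbouring pseudogene SPAC212.07c had 1.21, 0.914 and 1.496 CPM in STF6 and 0.876, 0.894 and 0.566 CPM in STF9, against 0.196, 0.287 and 0.251 CPM in T4A. Again no mutant library reached down to the T4A range. The log2 fold was 2.25 ± 0.36 in STF6 over T4A and 1.65 ± 0.39 in STF9 over T4A (adjusted p = 0.000462 and 0.00513). SPAC212.12 had 0.977, 0.958 and 1.12 CPM in STF6 and 0.824, 1.01 and 0.412 CPM in STF9, against 0, 0.287 and 0.419 CPM in T4A. The STF6 libraries lay above all T4A libraries, while STF9 replicate 3 was level with T4A replicate 3. The log2 fold was 2.03 ± 0.55 in STF6 over T4A (adjusted p = 0.0109) and 1.59 ± 0.58 in STF9 over T4A (adjusted p = 0.0416). It was 1.47 and 1.02 without T4A replicate 1, where the gene had no read, with STF9 then missing the threshold (adjusted p = 0.0871), and 2.87 and 2.43 without T4A replicate 3. The call in STF9 was lost under 8 of 15 alternatives. All of the 100-base windows of SPAC212.12 recur elsewhere, and its protein is identical to that of SPAC750.07c on the other arm. With the counts of both summed, the log2 fold was 2.01 ± 0.55 in STF6 and 1.56 ± 0.59 in STF9 (adjusted p = 0.0135 and 0.0483). Summed over both GPI family genes, there were 72, 59 and 49 reads in STF6 and 53, 40 and 44 in STF9, against 6, 7 and 13 in T4A.

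A run of 3 adjacent genes on the left arm of chromosome 2 rose in both mutants, at levels far above those of the GPI family genes. The first, aes1 (SPBPB21E7.07), encodes a protein of the PhzF family, named after an enzyme of phenazine synthesis in bacteria. It had 55.6, 45.1 and 47.7 CPM in STF6 and 43.0, 47.8 and 55.9 CPM in STF9, against 13.3, 10.9 and 16.0 CPM in T4A. The lowest mutant library was far above the highest T4A library. The log2 fold was 1.88 ± 0.15 in STF6 over T4A and 1.86 ± 0.15 in STF9 over T4A, 3.67-fold and 3.63-fold, with adjusted p of 2.60e-06 and 3.08e-06.

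Next to it, the pseudogene SPBPB21E7.08 had 55.6, 60.4 and 57.9 CPM in STF6 and 67.5, 63.1 and 76.0 CPM in STF9, against 13.2, 15.3 and 21.2 CPM in T4A. Its log2 fold was 1.80 ± 0.15 in STF6 over T4A and 2.05 ± 0.15 in STF9 over T4A (adjusted p = 2.81e-06 and 1.22e-06). On the opposite strand of this pseudogene a non-coding RNA, SPNCRNA.1305, was counted as well, at 154, 191 and 123 reads in STF6, 198, 151 and 188 in STF9 and 159, 176 and 221 in T4A. The non-coding RNA did not move with the pseudogene, at −0.23 ± 0.15 in STF6 and 0.06 ± 0.14 in STF9 (adjusted p = 0.232 and 0.738). The kit marks the strand, but the sources used here do not say whether the counting used it.

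The last of the run, SPBPB21E7.09, encodes a predicted L-asparaginase, an enzyme that frees ammonia from asparagine. It had 18.2, 17.9 and 18.0 CPM in STF6 and 18.8, 17.6 and 17.2 CPM in STF9, against 7.85, 7.01 and 9.71 CPM in T4A. The 6 mutant libraries lay close together and all above T4A, with a log2 fold of 1.13 ± 0.14 in STF6 and 1.12 ± 0.14 in STF9 (adjusted p = 4.92e-05 and 6.43e-05). Its protein is 98.6% identical to that of SPAC186.03 on the right arm of chromosome 1, which had 50 reads in all 9 libraries. Summing the 2 copies left log2 folds of 1.12 ± 0.13 and 1.10 ± 0.13. Another L-asparaginase gene, SPAC977.12, had 46.2, 47.9 and 44.8 CPM in STF6 and 50.2, 50.9 and 52.9 CPM in STF9. The T4A libraries had 46.0, 41.6 and 45.0 CPM. SPAC977.12 passed neither test (adjusted p = 0.558 and 0.0529), though its STF9 libraries all lay above those of T4A. In the authors' deposited table it is higher in STF9 at the same threshold (log2 fold 0.17). Together with SPBPB8B6.05c, a copy outside the set whose protein is 99.7% identical, it was called higher in STF9 (0.27 ± 0.07, adjusted p = 0.00977).

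**Figure D3:**
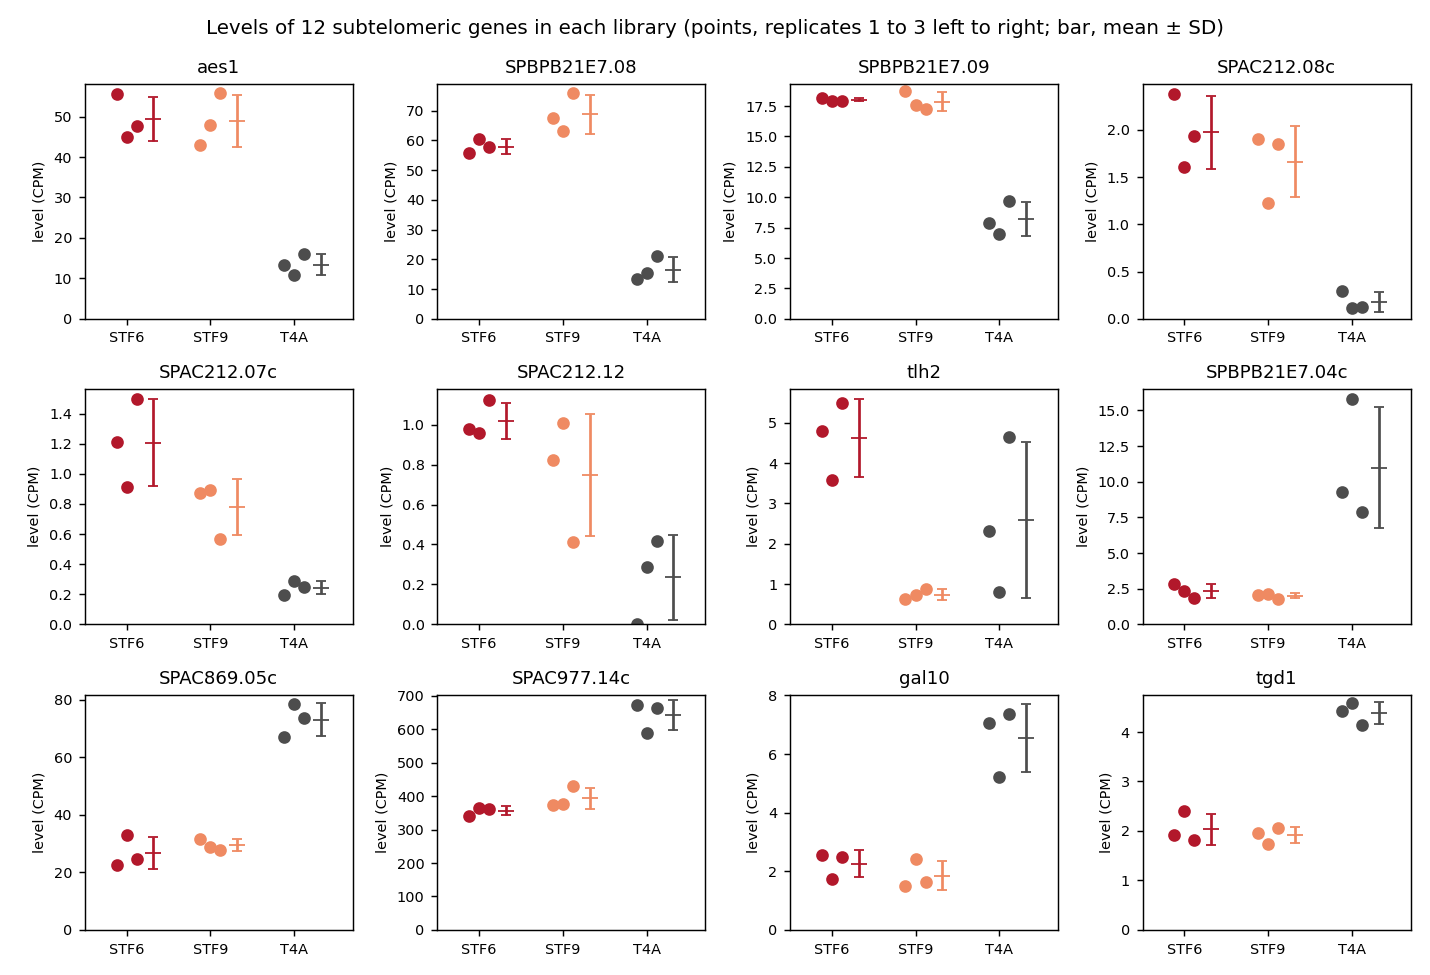
Levels (CPM) of 12 subtelomeric genes in the 3 libraries of STF6, STF9 and T4A, with the group mean ± SD beside the points and each axis starting at 0. The first 6 panels show genes higher in both mutants, tlh2 shows the STF6 libraries above and the STF9 libraries below the T4A mean, and the last 5 panels show genes lower in both.

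The other increases were smaller. The flocculin gene pfl9 (SPAC186.01), which encodes a surface glycoprotein of the kind that makes cells stick to each other, averaged 19.3 ± 2.60 CPM in STF6 and 19.5 ± 3.03 CPM in STF9, against 13.0 ± 1.26 CPM in T4A (SD, n = 3 each). Its libraries did not overlap those of T4A, and its log2 fold was 0.57 ± 0.15 in STF6 and 0.59 ± 0.15 in STF9 (adjusted p = 0.00934 and 0.00733). In STF6 the call was lost without STF6 replicate 3 (adjusted p = 0.0673).

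In STF6 3 more genes passed that did not pass in STF9. These were dak2, which encodes a dihydroxyacetone kinase and overlaps SPAC977.17 on the opposite strand (0.47 ± 0.15, adjusted p = 0.0301), gal7, the uridylyltransferase of galactose use (0.51 ± 0.18, adjusted p = 0.0381), and SPBPB2B2.01, a predicted amino acid transporter gene (1.00 ± 0.37, adjusted p = 0.0492). In STF9 over T4A their values were 0.36, 0.30 and 0.47, and none of the 3 differed between STF9 and STF6 by the test (adjusted p = 0.98 for each). T4A replicate 2 weighed on SPBPB2B2.01, which had 10.5, 8.45 and 8.54 CPM in STF6 and 7.11, 6.20 and 5.76 CPM in STF9, against 2.16, 9.02 and 2.97 CPM in T4A. Without that library it was higher in both mutants, by 1.83 in STF6 (adjusted p = 3.19e-08) and 1.30 in STF9 (adjusted p = 9.24e-06). Leaving out any other single library ended its call in STF6. The call of dak2 was lost under 7 of 17 alternatives, and that of gal7 under 10 of 17.

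Without T4A replicate 2, put4 (the predicted proline permease), SPAC977.17 (a predicted water channel) and SPBPB10D8.01 (a predicted cysteine transporter) also passed as higher in both mutants, and dak2 in STF9. For put4 the levels were 53.8, 56.9 and 51.7 CPM in STF6 and 48.7, 50.3 and 46.8 CPM in STF9, against 30.1, 57.5 and 36.7 CPM in T4A. Its log2 fold was 0.39 ± 0.18 in STF6 and 0.23 ± 0.18 in STF9 with all libraries (adjusted p = 0.0974 and 0.294), and 0.70 and 0.54 without T4A replicate 2 (adjusted p = 8.81e-07 and 3.03e-05).

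Among the 39 tested genes, the largest decrease was that of SPBPB21E7.04c, which encodes an O-methyltransferase related to human catechol O-methyltransferase. It had 2.84, 2.35 and 1.87 CPM in STF6 and 2.06, 2.12 and 1.80 CPM in STF9, against 9.28, 15.8 and 7.91 CPM in T4A. All T4A libraries stood above all mutant libraries, with replicate 2 the highest. The level was 4.58-fold lower in STF6 and 5.46-fold lower in STF9, with log2 folds over T4A of −2.20 ± 0.26 and −2.45 ± 0.27 (adjusted p = 4.30e-05 and 2.59e-05). Without T4A replicate 2 the log2 fold was −1.84 in STF6 and −2.10 in STF9.

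A pair of overlapping genes in the galactose cluster of the right arm of chromosome 2 was also lower in both mutants. In fission yeast gal1, gal7 and gal10 lie together and encode the enzymes that bring galactose into sugar metabolism. The epimerase gene gal10 (SPBPB2B2.12c) had 2.56, 1.74 and 2.49 CPM in STF6 and 1.49, 2.40 and 1.65 CPM in STF9, against 7.07, 5.23 and 7.37 CPM in T4A. The sugar dehydratase gene tgd1 (SPBPB2B2.11), which overlaps it on the opposite strand, had 1.91, 2.40 and 1.81 CPM in STF6 and 1.96, 1.73 and 2.06 CPM in STF9, against 4.42, 4.59 and 4.14 CPM in T4A. For both genes no mutant library reached the T4A range. The log2 fold of gal10 was −1.55 ± 0.22 in STF6 and −1.84 ± 0.23 in STF9 (adjusted p = 0.000208 and 7.67e-05). That of tgd1 was −1.09 ± 0.18 in STF6 and −1.19 ± 0.18 in STF9 (adjusted p = 0.00052 and 0.000339). Reads of the overlap cannot be told apart between these genes if strand was not used in counting.

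The rest of the cluster did not move with them. The galactokinase gene gal1 had 9.45, 10.1 and 10.2 CPM in STF6 and 12.3, 11.1 and 13.1 CPM in STF9, against 12.6, 8.67 and 13.9 CPM in T4A. Its log2 fold of −0.25 ± 0.17 in STF6 and 0.05 ± 0.16 in STF9 did not pass (adjusted p = 0.242 and 0.829), though without T4A replicate 2 it was called lower in STF6 (−0.42, adjusted p = 0.009). The uridylyltransferase gene gal7 was called higher in STF6, as given above. So by the main fit, among the 3 galactose genes in STF6, 1 was called higher, 1 was called lower and 1 did not pass. The gal7 call was lost under 10 of 17 alternatives, so this split depends on the setting. The antisense RNA SPNCRNA.1697, opposite gal1, had −0.13 ± 0.13 in STF6 and −0.24 ± 0.13 in STF9 (adjusted p = 0.436 and 0.145).

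Among the transporters, 9 of 18 were tested, with 1 higher and 3 lower in STF6 (11.1% and 33.3%, against 19.2% and 19.2% of all genes) and 0 higher and 3 lower in STF9 (0% and 33.3%, against 23% and 21.3% of all genes). With so few genes these shares are descriptions. The predicted sulfate transporter gene SPAC869.05c had 22.5, 33.0 and 24.8 CPM in STF6 and 31.7, 28.9 and 27.7 CPM in STF9, against 67.0, 78.6 and 73.8 CPM in T4A. T4A was more than double every mutant library, and the log2 fold was −1.45 ± 0.13 in STF6 and −1.31 ± 0.13 in STF9 (adjusted p = 6.93e-06 and 1.72e-05). The sodium and proton antiporter gene nhe1, which serves salt tolerance, averaged 105 ± 3.83 CPM in STF6 and 101 ± 6.20 CPM in STF9, against 146 ± 24.0 CPM in T4A. Its log2 fold was −0.46 ± 0.10 in STF6 and −0.53 ± 0.10 in STF9 (adjusted p = 0.00397 and 0.0017). The arginine and lysine permease gene cat1 moved least of the called genes, by −0.30 ± 0.09 in STF6 and −0.25 ± 0.09 in STF9 (adjusted p = 0.0191 and 0.0389), and its call was lost in the fits of only the 6 libraries compared (adjusted p = 0.0512 in STF6). The call in STF9 was also lost without STF9 replicate 2 or 3 or T4A replicate 2, and when scaled by library size alone. The fluoride channel gene fex1 and the Golgi antiporter gene gdt1 passed in neither mutant. For gdt1 all STF6 libraries lay above all T4A libraries (0.62 ± 0.28, adjusted p = 0.0978). The protein of fex1 is identical to that of SPBPB8B6.06c outside the set, and 73.1% of the 100-base windows of fex1 recur elsewhere. With both copies summed the log2 fold was 0.32 ± 0.20 in STF6 and 0.09 ± 0.20 in STF9, and neither passed.

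Of the 37 enzyme genes 18 were tested, with 4 higher and 7 lower in STF6 (22.2% and 38.9%, against 19.2% and 19.2% of all genes) and 2 higher and 7 lower in STF9 (11.1% and 38.9%, against 23% and 21.3% of all genes). The aldo/keto reductase gene SPAC977.14c had the most reads of all the genes studied, at 340, 364 and 363 CPM in STF6 and 374, 377 and 430 CPM in STF9, against 672, 590 and 663 CPM in T4A. Its log2 fold was −0.85 ± 0.09 in STF6 and −0.71 ± 0.09 in STF9 (adjusted p = 1.45e-05 and 6.64e-05). Beside it, SPAC977.15, a gene of the dienelactone hydrolase family linked to detoxification, fell to 3.44 ± 0.26 CPM in STF6 and 3.38 ± 0.60 CPM in STF9, against 6.92 ± 1.37 CPM in T4A (adjusted p = 0.00132 and 0.00122). The close copy SPAC750.01 on the other arm, 94.5% identical to SPAC977.14c in protein, had −0.27 ± 0.31 and −0.37 ± 0.32 and did not pass.

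The predicted sterol deacetylase gene say1 was lower in both, by −0.70 ± 0.21 in STF6 and −0.98 ± 0.21 in STF9 (adjusted p = 0.0186 and 0.00336), with its STF6 call lost without STF6 replicate 1 or 2 and when scaled by library size alone. The nitric oxide dioxygenase gene yhb1, whose product detoxifies nitric oxide, had 108, 125 and 122 CPM in STF6 and 139, 156 and 147 CPM in STF9, against 148, 146 and 186 CPM in T4A. It was called lower in STF6 (−0.44 ± 0.10, adjusted p = 0.00453) and not in STF9 (−0.12 ± 0.10, adjusted p = 0.332), and the STF6 call was lost when scaled by library size alone (adjusted p = 0.0685). In STF9 the hydrolase pseudogene SPAC977.13c (−0.64 ± 0.23, adjusted p = 0.0374) and the glutamine amidotransferase family gene SPBPB2B2.05 (−0.53 ± 0.20, adjusted p = 0.0466) were lower, without passing in STF6. Their calls were lost under 6 and 10 of 17 alternatives. Between STF9 and STF6 edgeR's test called none of yhb1, SPAC977.13c and SPBPB2B2.05 (adjusted p = 0.98 for each). It called 0 of all 5951 genes, so it cannot show that the mutants agree on these. All STF9 libraries lay above those of STF6 for yhb1 and below them for SPAC977.13c and SPBPB2B2.05, as for 9.63% and 7.36% of all genes. The unadjusted p by edgeR was 0.00728, 0.018 and 0.0449. The edgeR fit of only the 6 mutant libraries called yhb1 (adjusted p = 0.0173).

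**Figure D4:**
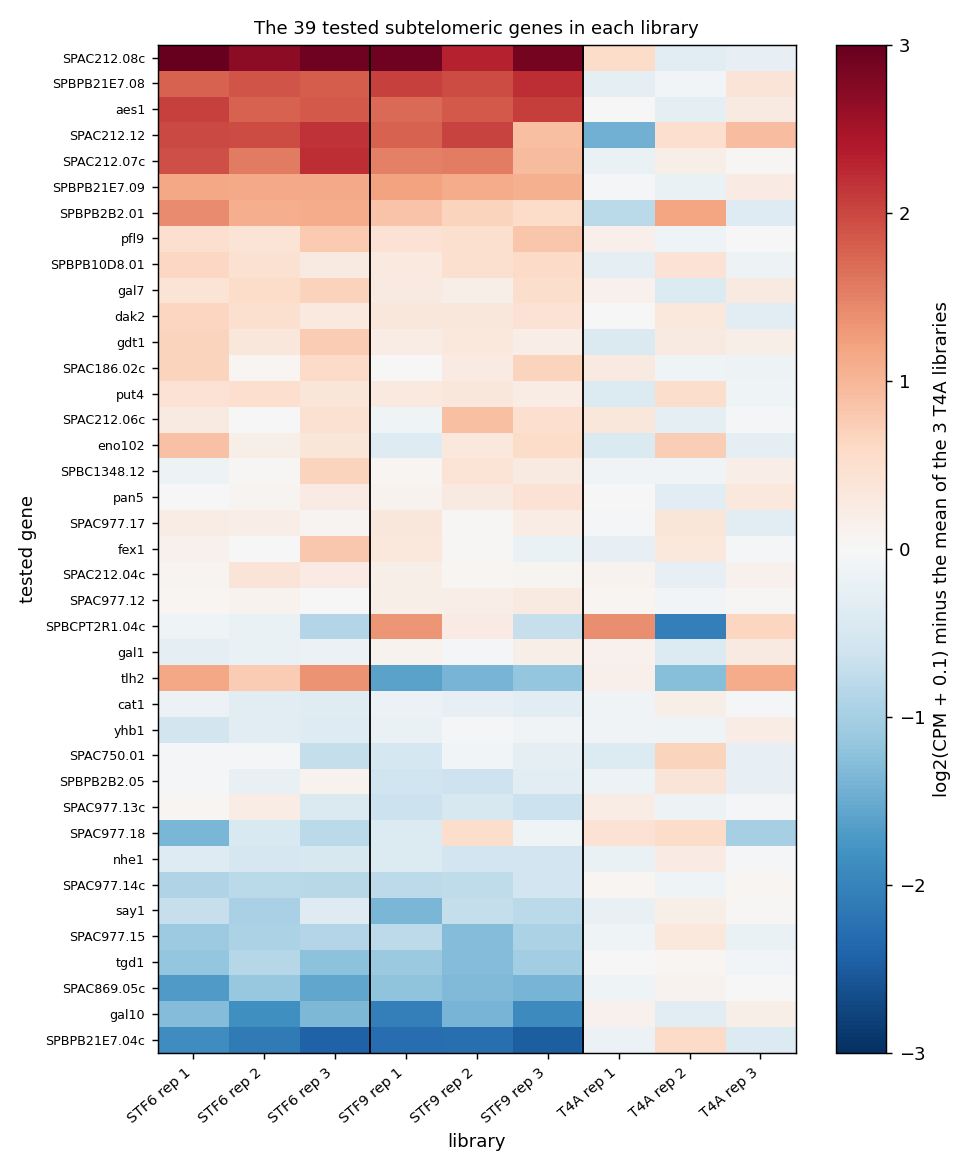
Log2(CPM + 0.1) of the 39 tested genes in each library minus the mean of the 3 T4A libraries, with colours cut at −3 and 3. The tlh2 row shows the largest difference between the STF6 and STF9 columns, and T4A replicate 2 differs from the other T4A columns for genes such as SPBPB2B2.01.

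The helicase gene tlh2 (SPBCPT2R1.08c), the outermost gene of its arm here, differed in its pattern from the other called genes. It had 103, 82 and 88 reads in the STF6 libraries and 12, 13 and 17 reads in the STF9 libraries, against 47, 14 and 111 reads in the T4A libraries. Levels were 4.62 ± 0.97 CPM in STF6 and 0.740 ± 0.129 CPM in STF9, against 2.59 ± 1.94 CPM in T4A (SD, n = 3 each). The STF9 libraries were level with T4A replicate 2, the STF6 libraries were nearer to T4A replicate 3, and the T4A libraries spanned most of the distance between the mutants. In STF9 over T4A the log2 fold was −1.85 ± 0.50 (adjusted p = 0.0112), and −1.10 without T4A replicate 3 (adjusted p = 0.0426). In STF6 over T4A it was 0.77 ± 0.39 (adjusted p = 0.132), and 1.52 without T4A replicate 3 (adjusted p = 0.00272). Over the 16 alternatives that tested tlh2, its log2 fold in STF6 over T4A ranged from 0.37 to 1.52 and passed in 2.

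Nearly the whole gene is duplicated. The gene tlh1 (SPAC212.11) lies at the far end of the left arm of chromosome 1. Its protein is identical to that of tlh2 over an alignment of 98.3% of the longer of the 2 proteins. Of the 100-base windows, 98.2% of those of tlh1 and 92.3% of those of tlh2 recur elsewhere in the genome. Reads of one copy may thus have been counted for the other or for neither. With both copies summed there were 109, 85 and 91 reads in STF6, 12, 14 and 18 in STF9 and 47, 14 and 113 in T4A. The log2 fold of the sum was 0.79 in STF6 and −1.83 in STF9 over T4A (adjusted p = 0.141 and 0.0144). A truncated helicase gene in the same region, SPAC212.06c, gave 0.24 ± 0.37 in STF6 and 0.50 ± 0.36 in STF9, neither of which passed.

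The mutants were then set against each other. By edgeR's quasi-likelihood test 0 of the 39 genes differed between STF9 and STF6, as did 0% of all genes tested, and 4 had an unadjusted p under 0.05 where 178 of all 5951 genes did. The median log2 fold was −0.0917 in STF9 over STF6, against 0.0075 over all genes. The libraries did not overlap for 6 genes higher and 7 lower in STF9 (9.63% and 7.36% of all genes). The largest of these differences was that of tlh2, at −2.62 ± 0.48 (adjusted p = 0.674), 6.14-fold lower in STF9 than in STF6. DESeq2 called tlh2 alone among the subtelomeric genes (adjusted p = 4.57e-05), as did edgeR without T4A replicate 2 (adjusted p = 1.26e-05) or 3 (adjusted p = 0.0154). The fit of only the 6 mutant libraries called it too (adjusted p = 4.27e-06), together with yhb1, which was 0.32 higher in STF9 (adjusted p = 0.0173). Over the 16 alternatives that tested tlh2 its adjusted p ranged from 4.27e-06 to 1.

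The other subtelomeric genes of highest level that passed in neither mutant were pan5, a predicted reductase of pantothenate synthesis (43.1 ± 3.63 CPM in STF6 and 47.9 ± 5.31 CPM in STF9, against 40.1 ± 8.85 CPM in T4A), SPAC977.17, SPAC212.04c, SPBC1348.12, SPBPB10D8.01, fex1 and SPAC186.02c. Their log2 folds over T4A lay between 0.10 and 0.45 in STF6 and between 0.06 and 0.44 in STF9. SPBC1348.12, the predicted transcription factor gene, was at 0.21 ± 0.21 and 0.24 ± 0.21. Of the 39 tested genes, 23 were called in at least 1 comparison and 16 in none. In the authors' deposited table for STF6 over T4A, 10 of the 114 genes are higher and 13 lower at the same threshold, with 18 of the 20 called here among them. In the authors' deposited table for STF9 over T4A, 9 are higher and 13 lower, with 18 of the 19 called here.

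Genes that encode silencing and telomere factors, which act on these regions from elsewhere in the genome, were read from a list of 57 names, of which 56 were matched and tested. In STF6, 14 were higher and 2 lower than in T4A, where 19.2% of all genes were higher and 19.2% lower, with a median log2 fold of 0.177, against 0.0293 over all genes. In STF9, 20 were higher and 3 lower, where 23% and 21.3% of all genes were, with a median of 0.258, against 0.0427 over all genes. Among the 12 called with the smallest p, the Paf1 complex genes tpr1, leo1 and paf1, whose products travel with the polymerase and oppose the spread of heterochromatin, were at 1.40, 1.12 and 0.22 in STF6 and 1.52, 1.23 and 0.36 in STF9. The tpr1 level was 81.3 ± 0.69 CPM in STF6 and 88.0 ± 4.93 CPM in STF9, against 30.6 ± 5.56 CPM in T4A. The gene clr1, which encodes a subunit of the SHREC silencing complex, had 0.55 in STF6 and 0.60 in STF9, and epe1, which encodes an antagonist of heterochromatin, 0.34 and 0.28.

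Lower in both were rik1, a subunit gene of the Clr4 complex (−0.38 in STF6 and −0.38 in STF9), and ago1, the Argonaute gene of RNA interference (−0.40 and −0.46). Also called higher in both were bqt4 (0.47 and 0.54), whose product ties telomeres to the nuclear envelope, spt16 (0.48 and 0.64), a subunit gene of the histone chaperone FACT, red1 (0.64 and 0.74), a factor in the removal of meiotic RNAs, the telomere capping gene ten1 (0.81 and 0.57) and hip1 (0.39 and 0.64), a histone chaperone subunit gene. The methyltransferase gene clr4 itself was at 0.21 ± 0.12 in STF6 (adjusted p = 0.168). The gene of its reader, swi6, had 67.4 ± 7.17 CPM in STF6 and 72.8 ± 11.6 CPM in STF9, against 49.4 ± 14.0 CPM in T4A, and was called higher in STF9 (0.55 ± 0.18, adjusted p = 0.0246) but not in STF6 (0.44 ± 0.18, adjusted p = 0.0669). Between STF9 and STF6 none of the 56 passed by edgeR. Whether these levels bear on the subtelomeric genes was not tested.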

How the data were processed

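Poly(A)+ RNA was sequenced from 3 libraries each of STF6, STF9 and T4A with a stranded kit, per the labels' protocols. The submitters' processing notes name DESeq2, HTSeq 0.10.0, HISAT2 2.1.0 and SAMtools, with the genome build ASM294v2. The authors deposited raw counts per gene, and tables whose columns are, per the file headers, log2 fold changes, p-values and adjusted p-values, used here only to compare calls. From 6987 lines 1 all-zero duplicate was dropped.

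The counts were fitted in R 4.3.3 with edgeR 4.0.16 (filterByExpr, TMM, glmQLFit over the 9 libraries by group, glmQLFTest). Benjamini-Hochberg adjustment ran over 5951 genes. CPM are TMM-scaled. The common biological coefficient of variation was 0.104. Named are all called genes, examples of near-identical copies, the 10 uncalled genes of highest level, and the 12 called silencing factors of smallest p. Alternatives were other scalings and filters, DESeq2 1.42.0, a fit of 6 libraries, a replicate block, summed copies and each library left out. The scripts were tested on simulated data. Copies were found with BLAST+ 2.17.0 on RefSeq's ASM294v3, which differs from the authors' build, so no coordinates or sequences are printed. The members and lists were chosen with earlier results of these data known.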

Additional observations from a re-analysis of the deposited data

Results flagged for a closer look

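The helicase gene tlh2 (SPBCPT2R1.08c) stood on opposite sides of the T4A mean in the mutants. Relative to the T4A mean of 2.59 CPM, all 3 STF6 libraries were above it (3.57 to 5.49 CPM) and all 3 STF9 libraries below it (0.618 to 0.875 CPM). The difference between STF9 and STF6 was −2.62 ± 0.48 on the log2 scale and did not pass edgeR's quasi-likelihood test over all genes (adjusted p = 0.674, unadjusted p = 0.000113), while DESeq2 called it (adjusted p = 4.57e-05). The T4A libraries ranged from 0.804 to 4.65 CPM, which overlapped the libraries of both mutants. By edgeR's test tlh2 was not called in STF6 over T4A (adjusted p = 0.132) and was called lower in STF9 over T4A (adjusted p = 0.0112). The gene shares nearly all of its sequence with tlh1.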

How the results depend on the processing

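In STF6 over T4A, 13 of the 20 called genes kept their call under every alternative that could test them, and in STF9 15 of 19. No value changed sign among those called. With at least 1 CPM required in all 9 libraries, 29 genes were tested. Of these, 6 were higher in STF6 and 4 in STF9, where 1050 and 1287 of all 5430 genes were. The medians were 0.092, 0.0805 and −0.0168 in STF6, STF9 and STF9 over STF6. Fewer genes are tested there by construction. Scaled by library size alone the STF9 median was 0.225. For STF9 over STF6, 1 gene was lower with DESeq2, as was 1 of all 6602 genes. In the fit of 6 libraries 1 was higher and 1 lower, where 7 and 10 of all 5870 genes were. Leaving out 1 library at a time, the medians ranged from 0.0956 to 0.278 in STF6, from 0.0825 to 0.179 in STF9 and from −0.119 to −0.0464 in STF9 over STF6. Higher genes ranged from 7 to 13 in STF6 and from 6 to 12 in STF9, lower genes from 9 to 12 in both, and lower genes in STF9 over STF6 from 0 to 1. Over all genes tested, higher ones ranged from 745 to 1410 in STF6 and from 807 to 1645 in STF9. Lower ones ranged there from 905 to 1443 and from 814 to 1528, and from 0 to 6 in STF9 over STF6. The cause was not tested. Counts of the remaining alternatives stayed within 1.5 times those reported.

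Deviations of same-numbered libraries correlated between −0.306 and 0.38, and those of other libraries between −0.364 and 0.389. The deviations were taken from the mean of each group's few libraries, which ties them to each other. These correlations therefore cannot show whether same-numbered libraries were paired, and the labels name no pairing. Not every library correlated best with its own number. With the number as a block, 12 genes were higher and 10 lower in STF6, 6 higher and 11 lower in STF9, and 0 differed between the mutants. Of all 5951 genes, 1260 were then higher and 1172 lower in STF6, 1504 and 1299 in STF9, and 0 differed between the mutants. In STF6 the block added put4 and tlh2 as higher, and in STF9 SPAC212.12 and SPBPB2B2.05 were no longer called. Of the 75 genes with few counts, 55 could be tested only without the filter, on at most 74 reads over the 9 libraries.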

Other observations

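Without a filter on low counts, 7 further calls appeared by edgeR among genes of very few reads. Some of their fitted folds are larger than those given above for the genes that passed the filter. In STF6, SPAC186.03 (the L-asparaginase copy) had 10, 11 and 7 reads against 1, 4 and 0 in T4A (log2 fold 2.42), and SPAC212.01c of the DUF999 family had 7, 10 and 8 against 1, 0 and 1 (log2 fold 3.45). Lower in STF6 were pcm2 (SPAC869.08), a predicted protein methyltransferase gene, with 3, 3 and 2 reads against 17, 6 and 10, and SPAC869.09, a conserved fungal protein gene, with 0, 2 and 0 against 13, 3 and 5 (log2 fold −3.14). In STF9, SPAC186.08c, a predicted lactate dehydrogenase gene, had 4, 2 and 3 reads where T4A had 0 in each library. SPAC869.09 had 0, 2 and 1 reads against 13, 3 and 5 in T4A (log2 fold −2.55), and the predicted arylsulfatase gene SPBPB10D8.02c had 1, 2 and 1 against 5, 16 and 4.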
